A study of Homo sapiens with 10 samples.

Results

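The transcripts described here are the 101 of 19893 genes in the counts of the series that encode subunits of the respiratory chain and the ATP synthase, or close relatives of them. They were chosen by symbol alone, with no use of their values: MT-ND, MT-CO, MT-ATP and MT-CYB genes, the numbered NDUFA, NDUFB, NDUFC, NDUFS and NDUFV genes, SDHA to SDHD, UQCR genes, COX4I to COX8 genes and ATP5 genes. By complex, 43 members belong to complex I, 4 to complex II, 10 to complex III, 21 to complex IV and 23 to complex V, the ATP synthase, with NDUFA4 counted in complex IV. The mitochondrial genome encodes 13 of them (7 in complex I, 1 in complex III, 3 in complex IV and 2 in complex V) and the nucleus the other 88.

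The cells are Kuramochi, an established human high-grade serous ovarian cancer line whose parental cells carry a BRCA2 mutation. Whether adapted cells keep the defect in homologous recombination was not tested. Their RNA was read cell by cell in droplets, with and without olaparib, a drug that blocks the PARP enzymes used in DNA repair. The 5 conditions were control cells that never met the drug, cells taken from the drug-naive population and held for 9 days in the drug at 10 µM or 320 µM (persister cells), and populations already resistant to 10 µM or 320 µM (adapted cells). How long the adapted populations had been in drug, and whether they descend from 1 clone, is not stated in the labels, and no drug-free adapted cells were compared. Cells of all conditions were hashtagged and mixed into 2 pools, and adding up cells by condition and pool gave 10 sums, n = 2 per condition.

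The respiratory chain sits in the inner mitochondrial membrane. Complexes I and II pass electrons from NADH and succinate to coenzyme Q, complex III passes them to cytochrome c, and complex IV hands them to oxygen. Complexes I, III and IV pump protons, and complex V lets them back to make ATP. Mitochondrial DNA is transcribed from both strands into long precursors that are cut into single transcripts, whereas nuclear subunits are made in the cytosol and imported, so each complex except complex II needs both genomes. High-grade serous ovarian tumours are known to differ in how much they use this machinery.

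Sums held 3532281 to 23189583 UMIs (unique molecular identifiers, 1 per captured transcript), the fewest in 10 µM persister cells, of which there were 300 and 263 in the 2 pools. The other conditions had 606 to 2435 cells per sum. Of the epithelial and ovarian serous markers looked up, 9 of 9 exceeded 3 UMIs in control and 10 µM persister cells. In 320 µM persister and 10 µM adapted cells 8 of 9 did, and in 320 µM adapted cells 7 of 9. Their summed level was 4207 and 4298 CPM (UMIs after scaling all sums to 1 size) in control. It was 3474 and 2822 in 10 µM persister and 2385 and 2309 in 320 µM persister cells. Adapted cells had 2556 and 2486 at 10 µM and 1362 and 1229 at 320 µM. The 2 pools share 13 cell barcodes. The labels do not say whether the pools are separate cultures, so p-values here reflect pool-to-pool spread that may be technical.

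Of the 101 members, 95 had enough counts to be tested, 82 of the 88 nuclear-encoded and 13 of the 13 mitochondrially encoded. COX6A2, COX4I2, COX7A1, COX7B2, COX8C and ATP5MF-PTCD1 did not: their highest counts in any sum were 0, 1, 5, 3, 4 and 6 UMIs, where up to 3 counts as the floor. The first 5 are paralogs used mainly in other tissues, such as muscle, lung or testis, and the last is a readthrough transcript. Promoter sequence is shown first for nuclear members that moved apart in adapted cells, because the genes are controlled separately although their proteins join in fixed ratios. RefSeq promoters (GRCh38.p14, 250 bases before to 50 after the start) were found for 70 of the 88 nuclear members.

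NDUFA3, an accessory subunit of complex I, and ATP5MC2, a gene for the proton-carrying c ring of ATP synthase, were among the largest rises in adapted cells. ATP5PB, a stalk subunit of ATP synthase, had the largest fall at 320 µM. ATP5MC1 encodes the same mature c subunit as ATP5MC2 and was added after its values were seen. The 250 bases before each start are given 5′ to 3′ on the strand of the gene, at chr19:54102605-54102854 (plus strand), chr12:53676084-53676333 (minus), chr17:48892537-48892786 (plus) and chr1:111449214-111449463 (plus), with matches to the motifs named next in capitals.
NDUFA3: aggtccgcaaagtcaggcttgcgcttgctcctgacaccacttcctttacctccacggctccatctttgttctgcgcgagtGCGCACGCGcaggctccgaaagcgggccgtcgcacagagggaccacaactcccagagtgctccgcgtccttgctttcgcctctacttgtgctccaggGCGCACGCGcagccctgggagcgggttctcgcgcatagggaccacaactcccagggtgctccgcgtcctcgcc
ATP5MC2: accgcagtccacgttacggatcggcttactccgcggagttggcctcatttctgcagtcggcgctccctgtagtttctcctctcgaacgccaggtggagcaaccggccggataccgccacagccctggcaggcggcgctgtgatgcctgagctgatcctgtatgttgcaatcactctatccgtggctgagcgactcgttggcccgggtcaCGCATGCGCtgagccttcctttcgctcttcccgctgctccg
ATP5MC1: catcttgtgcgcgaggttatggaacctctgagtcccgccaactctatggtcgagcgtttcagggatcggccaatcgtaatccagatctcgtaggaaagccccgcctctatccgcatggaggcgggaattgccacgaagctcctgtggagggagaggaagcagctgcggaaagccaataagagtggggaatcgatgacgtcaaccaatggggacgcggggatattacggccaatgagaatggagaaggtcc
ATP5PB: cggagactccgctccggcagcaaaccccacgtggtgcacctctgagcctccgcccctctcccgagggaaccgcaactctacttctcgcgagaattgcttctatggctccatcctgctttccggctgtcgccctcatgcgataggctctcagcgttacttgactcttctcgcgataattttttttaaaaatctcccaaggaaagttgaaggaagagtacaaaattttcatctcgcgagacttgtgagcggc

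Motifs of 3 factors linked to nuclear genes of mitochondria were searched on both strands of the whole windows, each separately and counting overlaps. The NRF1 motif GCGCANGCG lay in 22 of the 70 members (31.4%) against 7.52% of 35116 promoters of every kind of gene in the table. The ETS motif CCGGAAGT, read by GABP among others, lay in 10 (14.3%) against 4.14%, and the YY1 motif AAGATGGCG in 8 (11.4%) against 1.75%. At least 1 of the 3 lay in 34 members (48.6%) against 12.3% of all promoters. In the sequences above, NDUFA3 held the NRF1 letters at 170 to 162 and 73 to 65 bases before its start and ATP5MC2 at 41 to 33 bases before, while the windows of ATP5MC1 and ATP5PB held none of the 3. These windows are a pick and do not stand for the other members. SDHD and UQCRFS1 held the NRF1 motif, NDUFS1 the ETS motif and SDHB the YY1 motif, yet all were below control in adapted cells. NDUFA4, NDUFA5 and COX7A2L were also below control there and held none of the 3. NDUFS4 was above control in adapted cells and held the YY1 but not the NRF1 motif. Whether motifs go with the changes was not tested. A match is a description of letters and not of binding.

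Mitochondrially encoded members took up more of the RNA than all nuclear-encoded members together, and their share moved more between conditions. They made up 8.33% and 8.08% of all UMIs in control (pools 1 and 2), 5.34% and 5.31% in 10 µM persister, 9.17% and 9.39% in 320 µM persister, 7.37% and 7.30% in 10 µM adapted and 5.35% and 5.40% in 320 µM adapted cells. The control sums overlapped with none of the treated ones, and the lowest values were those of 10 µM persister and 320 µM adapted cells. Nuclear-encoded members made up 3.38% and 3.40% in control, 2.49% and 2.59% in 10 µM persister, 3.38% and 3.36% in 320 µM persister, 2.68% and 2.70% in 10 µM adapted and 2.40% and 2.42% in 320 µM adapted cells. There the control and 320 µM persister sums overlapped, and the other 3 conditions were lower.

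A share can fall while the number of transcripts captured per cell does not. Per cell, 10 µM persister cells had 1.31 ± 0.0246 times the total UMIs of control cells of the same pool (mean ± SD, n = 2 pools). Their nuclear-encoded members stood at 0.978 ± 0.0421 times control per cell, and their mitochondrially encoded ones at 0.847 ± 0.0305 times. In these cells the count of nuclear-encoded transcripts per cell was within the pool spread of control while their share was 0.749 ± 0.0181 times it. In 320 µM persister cells, total, nuclear-encoded and mitochondrially encoded UMIs per cell were 1.23 ± 0.0106, 1.23 ± 0.00133 and 1.39 ± 0.0643 times control.

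Adapted cells differed from control in the members and hardly in total content. At 10 µM, total UMIs per cell were 0.942 ± 0.00760 times control, nuclear-encoded members 0.748 ± 0.00478 times and mitochondrially encoded members 0.843 ± 0.00608 times. At 320 µM the values were 0.992 ± 0.00902, 0.705 ± 0.00841 and 0.651 ± 0.0246 times control. With 2 sums on each side, the smallest p of an exact two-sided permutation test is 0.33, so these shares and ratios carry no test. In the sums used below, fewer cells with a transcript and fewer transcripts in each cell cannot be told apart.

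**Figure D1:**
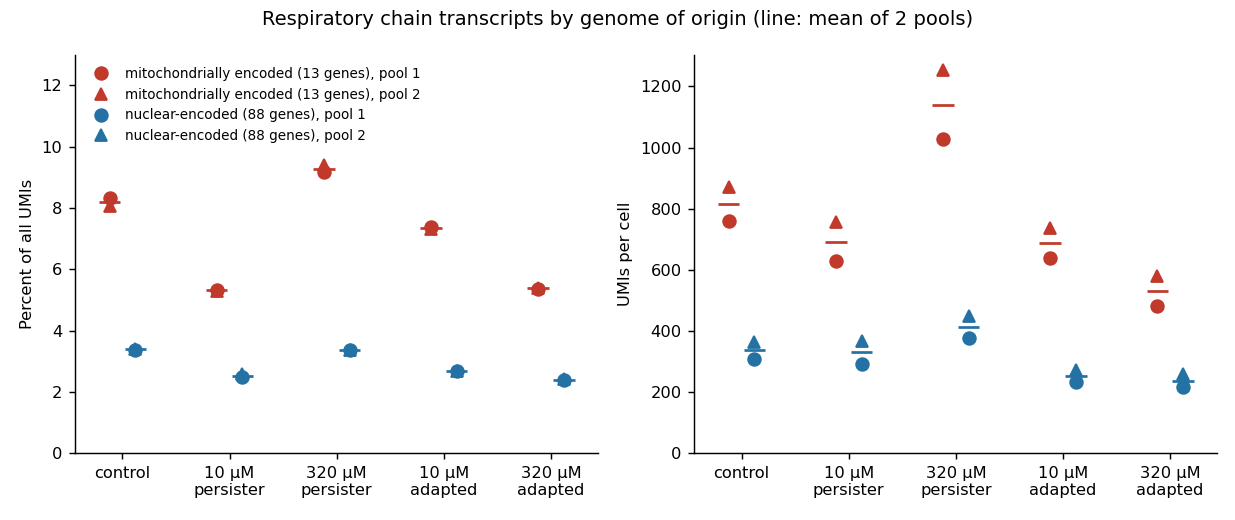
Percent of all UMIs (left axis, percent) and UMIs per cell (right axis) in each condition, for the 13 mitochondrially encoded and 88 nuclear-encoded members, with circles for pool 1, triangles for pool 2 and a line at their mean. Mitochondrially encoded UMIs per cell run from 482 in 320 µM adapted to 1252 in 320 µM persister cells, and pool 2 lies above pool 1 in every condition on the right but not on the left.

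The ratio of the genomes also moved. Per nuclear-encoded UMI there were 2.46 and 2.38 mitochondrially encoded UMIs in control, 2.15 and 2.05 in 10 µM persister, 2.71 and 2.79 in 320 µM persister, 2.75 and 2.71 in 10 µM adapted and 2.23 and 2.23 in 320 µM adapted cells. The ratio was thus above control in 320 µM persister and 10 µM adapted cells and below it in the other 2 conditions, with no overlap with control. After thinning every cell to 3000 UMIs (207 shallower cells left out), the 5th to 95th percentiles of cells were 5.07% to 12.2% mitochondrially encoded UMIs in control pool 1 and 1.52% to 10.8% in 10 µM persister pool 1. Nuclear-encoded shares ran from 2.50% to 4.37% and 1.63% to 3.43% in the same sums. No cell of the deposited counts exceeded 15.0% mitochondrially encoded UMIs, which cuts the upper end most in 320 µM persister cells, where the 95th percentile was 14.2% in each pool. Across cells of a sum, Pearson's r between the thinned shares of the genomes was -0.17 to 0.03, a description in which both shares come from the same UMI total.

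Below, levels are CPM scaled by trimmed mean of M-values, in the order pool 1 and pool 2, and changes are log2 with the condition named first minus the second. A member rose or fell where the Benjamini-Hochberg adjusted p of edgeR's quasi-likelihood test over 13330 genes was under 0.05. So many genes passed in every comparison that each count is given with the percent of all tested genes called in that direction.

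In 10 µM persister cells most of the chain fell relative to other transcripts. Against control, 64 of 82 nuclear-encoded members fell and 6 rose, and 13 of 13 mitochondrially encoded members fell, where 29.3% of all tested genes were called lower and 27.3% higher. The median change was -0.36 for nuclear-encoded and -0.52 for mitochondrially encoded members, against -0.03 over all genes. Every complex took part: 27 of 36 nuclear members of complex I fell, 3 of 4 of complex II, 8 of 9 of complex III, 11 of 13 of complex IV and 15 of 20 of complex V.

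COX7C, a small subunit of complex IV, went from 957 and 942 CPM in control cells to 371 and 383 CPM, a log2 change of -1.33 ± 0.0410 (SE, adjusted p = 4.77e-22 by edgeR). NDUFB6, in the membrane arm of complex I, went from 270 and 281 to 105 and 120 CPM (-1.29 ± 0.0627, edgeR adjusted p = 6.51e-17). MT-ND6, a complex I subunit encoded on the light strand of the mitochondrial genome, went from 173 and 160 to 69.1 and 63.7 CPM (-1.33). No sums of these 3 genes overlapped between the conditions. UQCRB and UQCRH, small subunits of complex III, changed by -1.07 and -0.85. The c ring genes ATP5MC2 and ATP5MC3 changed by -1.15 and -1.14 and ATP5MC1 by -0.21.

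The 6 that rose came from complexes I, II, IV and V. ATP5IF1, the inhibitor that blocks reverse running of ATP synthase, went from 412 and 417 CPM in control to 589 and 577 (0.49 ± 0.0435, edgeR adjusted p = 5.36e-11), with no overlap. SDHB, the iron-sulfur subunit of complex II, went from 179 and 181 to 231 and 205 (0.27), and NDUFV3, an accessory subunit of complex I, from 47.0 and 46.7 to 53.6 and 55.0 (0.21). The others called higher were NDUFA6 (0.18), COX7A2L (0.15) and ATP5MD (0.12), of which NDUFA6 and ATP5MD are named because the count is small. In the cells of a deposited list named for G1 phase and in thinned cells, 3 nuclear members rose in place of 6, and 2 rose without pool 2 of control.

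**Figure D2:**
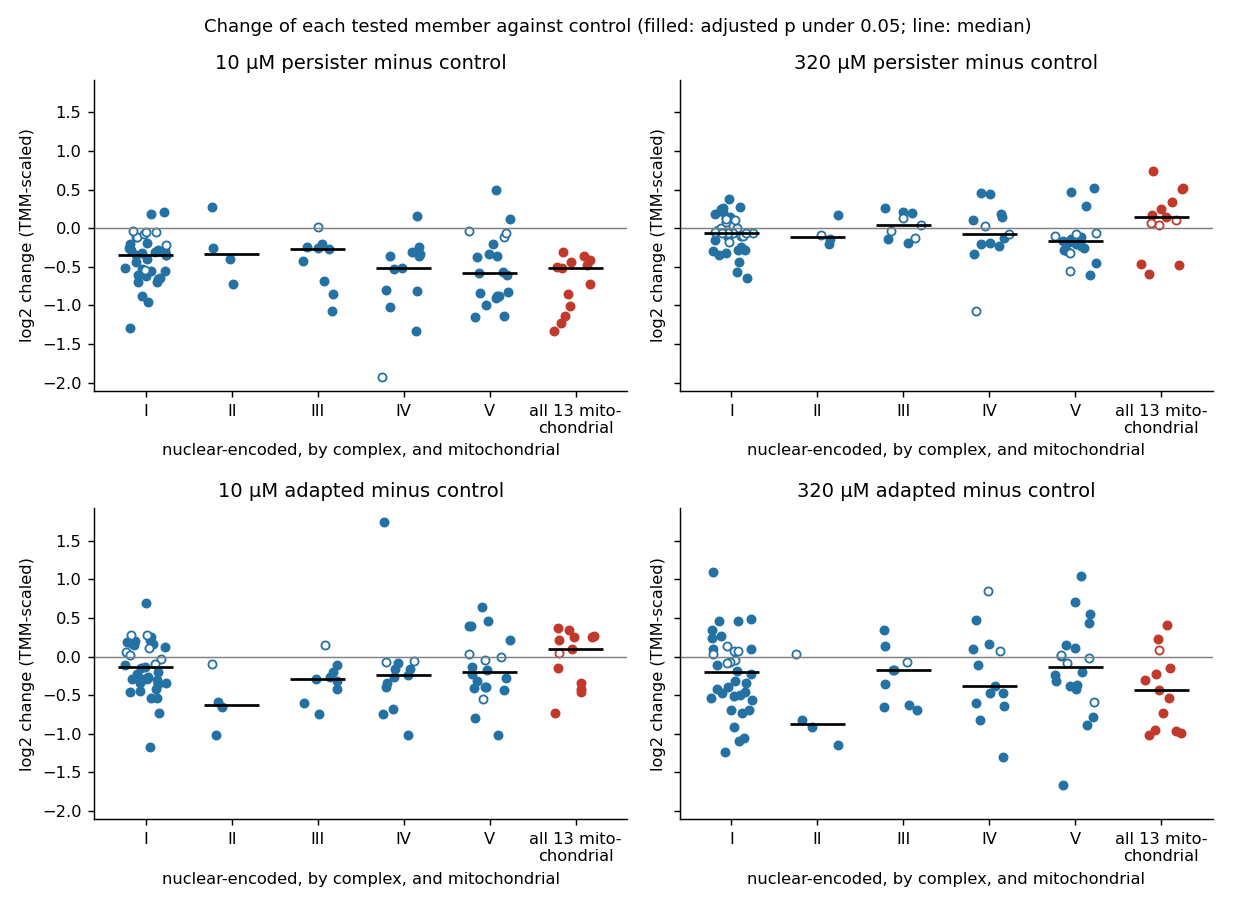
Log2 change against control (vertical axis) of each tested member in the 4 treated conditions, by complex for nuclear-encoded members (blue) and together for the 13 mitochondrially encoded ones (red); filled points had an adjusted p under 0.05 and the line is the median. Medians lie between -0.57 (complex V) and -0.27 (complex III) in 10 µM persister cells and between -0.17 and 0.15 in 320 µM persister cells, and the lowest median is that of complex II in 320 µM adapted cells (-0.87).

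At the higher dose the fall was small, and the 2 genomes parted. In 320 µM persister cells 32 of 82 nuclear-encoded members fell and 20 rose against control, where 28.3% of all tested genes were called lower and 26.3% higher, so the upward share of nuclear members was close to that of all genes. Their median change was -0.08. Of the mitochondrially encoded members 7 rose and 3 fell, with a median of 0.15. In listed cells and in thinned cells 20 and 21 nuclear members fell in place of 32.

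MT-ND4L, a core subunit of complex I, went from 151 and 145 CPM in control to 257 and 239 in 320 µM persister cells (0.74 ± 0.0494, edgeR adjusted p = 1.53e-13). MT-ND4, its neighbour on the same transcript, went from 6457 and 6396 to 8993 and 9439 CPM (0.52). Among nuclear members ATP5S, a gene named as a coupling factor of ATP synthase, rose most, from 33.8 and 30.8 to 46.3 and 46.1 CPM (0.52). None of the 3 genes' sums overlapped with control. NDUFC1 of complex I fell by 0.64, ATP5MC3 by 0.61 and MT-ATP6, the channel subunit beside the c ring, by 0.60 on the log2 scale. In complex IV 5 of 13 nuclear members rose and 5 fell, where 26.3% of all tested genes were called higher and 28.3% lower. COX6A1 (0.46) and COX7A2L (0.44) went up while COX7B (-0.34) and COX6B1 (-0.23) went down.

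Set against each other directly, the doses gave a one-sided result. From 10 to 320 µM persister cells 61 of 82 nuclear-encoded members rose and 3 fell, and 13 of 13 mitochondrially encoded members rose, where 25.3% of all tested genes were called higher and 24.4% lower. MT-ND6 went from 69.1 and 63.7 to 178 and 182 CPM (1.44 ± 0.0694, edgeR adjusted p = 5.29e-17). MT-CYB, the cytochrome b of complex III, went from 6449 and 6136 to 15382 and 15391 CPM (1.29), and UQCRB from 823 and 810 to 1990 and 1972 (1.28). In all 3 the 320 µM sums were over 2 times the 10 µM sums. The 3 that fell were SDHB (-0.36), ATP5MD (-0.19) and NDUFV2, a core subunit of complex I (-0.12, edgeR adjusted p = 0.0452). Without pool 2 of the 10 µM persister cells, 1 nuclear member fell in place of 3.

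Adapted cells at 10 µM had lower nuclear-encoded members than control, with mitochondrially encoded members on both sides. Of the nuclear-encoded members 52 fell and 15 rose, where 33.4% of all tested genes were called lower and 33.7% higher, and their median change was -0.23. Of the mitochondrially encoded members 7 rose and 5 fell. Complex III had 8 of 9 nuclear members lower, and complex II 3 of 4 lower. Complex I had 20 of 36 lower and 9 higher.

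SDHC, a membrane anchor of complex II that holds part of its heme, went from 231 and 226 CPM in control to 111 and 115 in 10 µM adapted cells (-1.02 ± 0.0491, edgeR adjusted p = 4.66e-17). NDUFB6 went from 270 and 281 to 119 and 125 CPM (-1.18) and NDUFA4, a complex IV subunit once assigned to complex I, from 1346 and 1357 to 668 and 666 (-1.02). None of these overlapped with control. In contrast NDUFA3 went from 78.2 and 78.5 to 122 and 132 CPM (0.70 ± 0.0575, edgeR adjusted p = 9.88e-12), ATP5S rose by 0.65 and ATP5MC2 by 0.47. COX6A1 (-0.07) and SDHA, the flavin subunit of complex II (-0.10), missed the threshold and passed it with the pool as a replicate block, at edgeR adjusted p of 0.0299 and 0.0297.

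A set of markers of another cell type moved with this condition. The summed fibroblast markers stood at 184 and 180 CPM in 10 µM adapted cells and at 2.10 to 12.8 CPM in the other sums, with 5 of 6 markers over 3 UMIs there and 2 of 6 elsewhere. COL1A2 was at 0 in control and persister cells of each dose. Its part in the results of this condition was not tested.

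In 320 µM adapted cells most mitochondrially encoded members were low again, and single nuclear members moved furthest. Against control 46 of 82 nuclear-encoded members fell and 20 rose, and 10 of 13 mitochondrially encoded members fell and 2 rose, where 36.9% of all tested genes were called lower and 37.6% higher. Median changes were -0.21 and -0.44. With library totals alone in place of the trimmed mean of M-values, which shifted the median of all genes by -0.23, the nuclear split was 62 lower and 10 higher.

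ATP5PB, in the stalk that keeps the F1 head of ATP synthase from turning, went from 303 and 295 CPM in control to 95.3 and 93.1 in 320 µM adapted cells (-1.67 ± 0.0496, edgeR adjusted p = 1.71e-22). NDUFA4 went from 1346 and 1357 to 559 and 542 CPM (-1.30) and NDUFA5, an accessory subunit of complex I, from 172 and 181 to 73.4 and 76.5 (-1.23). The 320 µM adapted sums of all 3 lay below every other sum of the series. NDUFA3 went from 78.2 and 78.5 to 166 and 169 CPM (1.10 ± 0.0568, edgeR adjusted p = 1.09e-16), ATP5S rose by 1.04 and ATP5MC2 by 0.70, and for these the 320 µM adapted sums were the highest of the series. NDUFS1, a core subunit of complex I that carries iron-sulfur clusters, fell by 1.10 on the log2 scale, and was named after its values were seen.

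**Figure D3:**
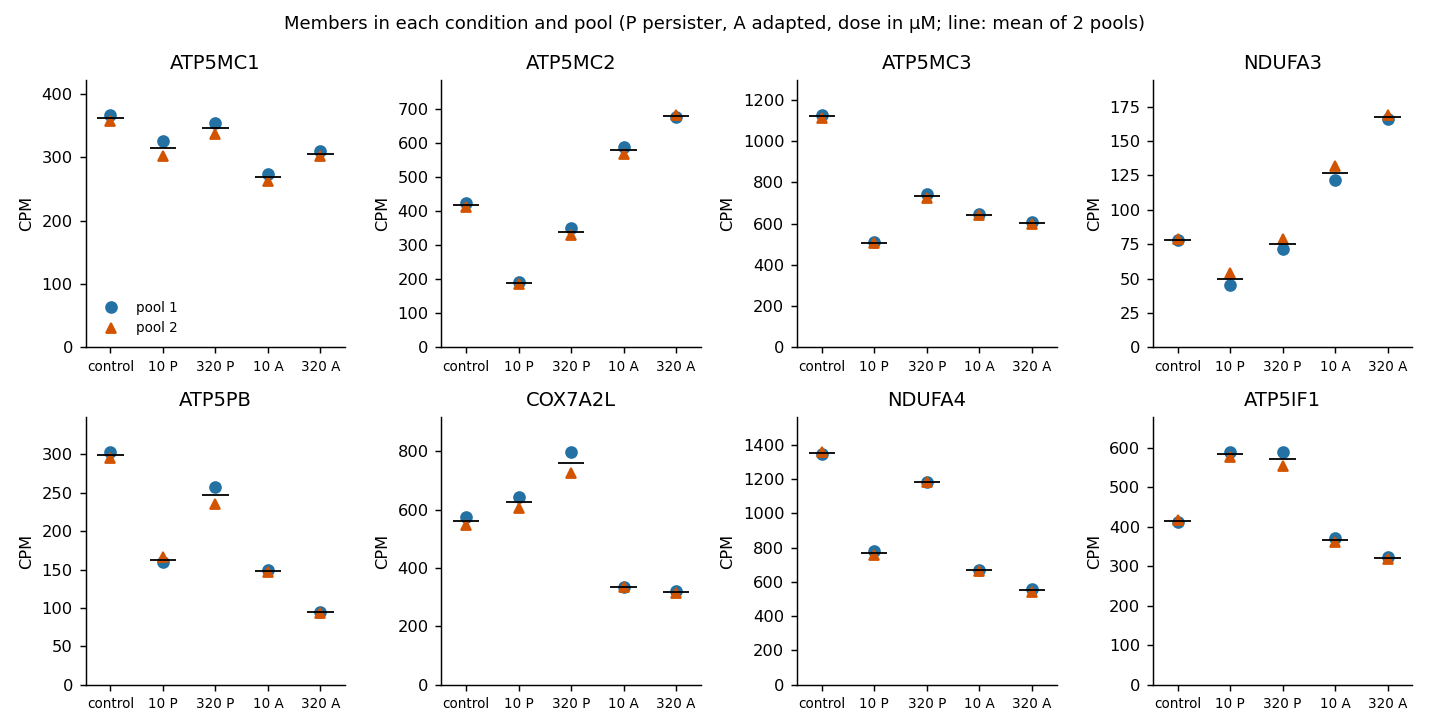
Level in CPM (vertical axes, from 0) of 8 nuclear-encoded members in each condition, with circles for pool 1, triangles for pool 2 and a line at the mean. NDUFA3 and ATP5MC2 are highest in adapted cells (up to 169 and 682 CPM), COX7A2L and NDUFA4 are lowest there (down to 313 and 542 CPM), and ATP5IF1 is highest in persister cells.

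Genes that encode the same mature subunit moved apart. The c ring of ATP synthase is built from 1 mature protein encoded by ATP5MC1, ATP5MC2 and ATP5MC3, whose promoters differ as the sequences above show for the first 2. ATP5MC2 stood at 425 and 411 CPM in control, 193 and 185 in 10 µM persister, 350 and 329 in 320 µM persister, 588 and 567 in 10 µM adapted and 677 and 682 in 320 µM adapted cells. ATP5MC3 stood at 1129 and 1114, 510 and 507, 746 and 727, 647 and 641, and 608 and 599 CPM in that order. ATP5MC1 stayed between 263 and 367 CPM. In adapted cells ATP5MC2 was thus above control and ATP5MC3 and ATP5MC1 below it, with no overlap of sums (at 320 µM 0.70, -0.89 and -0.24, each called).

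Among complex IV isoforms, the common forms carried nearly all counts. COX4I1 stood at 779 to 785 CPM in control, COX6A1 at 385 to 406, COX6B1 at 1013 to 1014, COX7A2 at 720 to 746 and COX8A at 614 to 624, while their restricted partners COX4I2, COX6A2, COX7A1 and COX8C were at 0 to 5 UMIs in every sum of the series. The exception was COX6B2, the testis form of a subunit facing the intermembrane space, with 29 and 23 UMIs in 10 µM adapted cells, 13 and 17 in 320 µM adapted, 15 and 8 in control, and 0 to 3 in persister cells. It rose against control in 10 µM adapted cells (1.74, edgeR), at 1.89 and 1.48 CPM against 0.663 and 0.339, a level near the floor. COX4I1 (0.16) and COX6A1 (0.47) rose in 320 µM adapted cells, COX7A2 rose by 0.09, and COX6B1 (-0.48) and COX8A (-0.39) fell, but under library totals alone COX4I1 and COX7A2 turned to -0.07 and -0.13.

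COX7A2L, a relative of COX7A2 that joins complexes III and IV into supercomplexes, went from 575 and 548 CPM in control to 644 and 605 in 10 µM persister, 797 and 724 in 320 µM persister, 335 and 335 in 10 µM adapted and 321 and 313 in 320 µM adapted cells. Persister sums were all above control and adapted sums all below it. The log2 changes against control were 0.15, 0.44, -0.75 and -0.83. ATP5IF1 too stood above control in each persister sum and below it in each adapted sum, at levels in the same order of 412 and 417, 589 and 577, 589 and 555, 373 and 361, and 323 and 318 CPM.

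Complex II, the only complex without a mitochondrially encoded subunit, had 3 of its 4 transcripts lower than control in adapted cells of each dose. Of all tested genes, 33.4% at 10 µM and 36.9% at 320 µM were called lower. SDHB stood at 179 and 181 CPM in control, 231 and 205 in 10 µM persister, 173 and 167 in 320 µM persister, 111 and 118 in 10 µM adapted and 99.7 and 104 in 320 µM adapted cells. SDHC and SDHD, the membrane anchors, were at 102 to 115 and 82.1 to 111 CPM in adapted cells against 226 to 231 and 160 to 165 in control. The changes at 320 µM were -0.82 for SDHB, -1.15 for SDHC and -0.92 for SDHD. SDHA stood at 103 and 102 CPM in control and 102 and 108 in 320 µM adapted cells (0.04, not called), but was at -0.19 and called with library totals alone.

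Neighbouring genes of the mitochondrial genome had changes of like size in some stretches. In genome order, 320 µM persister cells had MT-ND1 (0.25), MT-ND2 (0.50), MT-CO1 (0.17) and MT-CO2 (0.34) higher, MT-ATP8 at 0.04 without a call, then MT-ATP6 (-0.60), MT-CO3 (-0.47) and MT-ND3 (-0.46) lower, then MT-ND4L (0.74) and MT-ND4 (0.52) higher again, with MT-CYB at 0.15 and called. MT-ND5 (0.07) and MT-ND6 (0.11) missed the threshold and passed it with the pool as a replicate block (edgeR adjusted p of 0.0278 and 0.0131). The 3 lower genes follow each other without a gap of another protein gene.

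The same 3 genes were low elsewhere too, but not they alone. In 10 µM persister cells MT-ATP6, MT-CO3 and MT-ND3 changed by -1.23, -1.01 and -0.86, while MT-ND6 (-1.33) and MT-CYB (-1.14), outside the stretch, fell further than MT-CO3 and MT-ND3. In 320 µM adapted cells the 3 changed by -1.02, -0.96 and -0.73, beside MT-ND5 (-0.99) and MT-CYB (-0.97). MT-ATP6 itself went from 6168 and 6004 CPM in control to 2683 and 2489 in 10 µM persister, 4032 and 4023 in 320 µM persister, 4521 and 4605 in 10 µM adapted and 2983 and 3028 in 320 µM adapted cells. Every treated sum was thus below both control sums. In 10 µM adapted cells MT-ND3 rose (0.21) and MT-CO3 was at 0.04 without a call. These comparisons share the control sums.

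**Figure D4:**
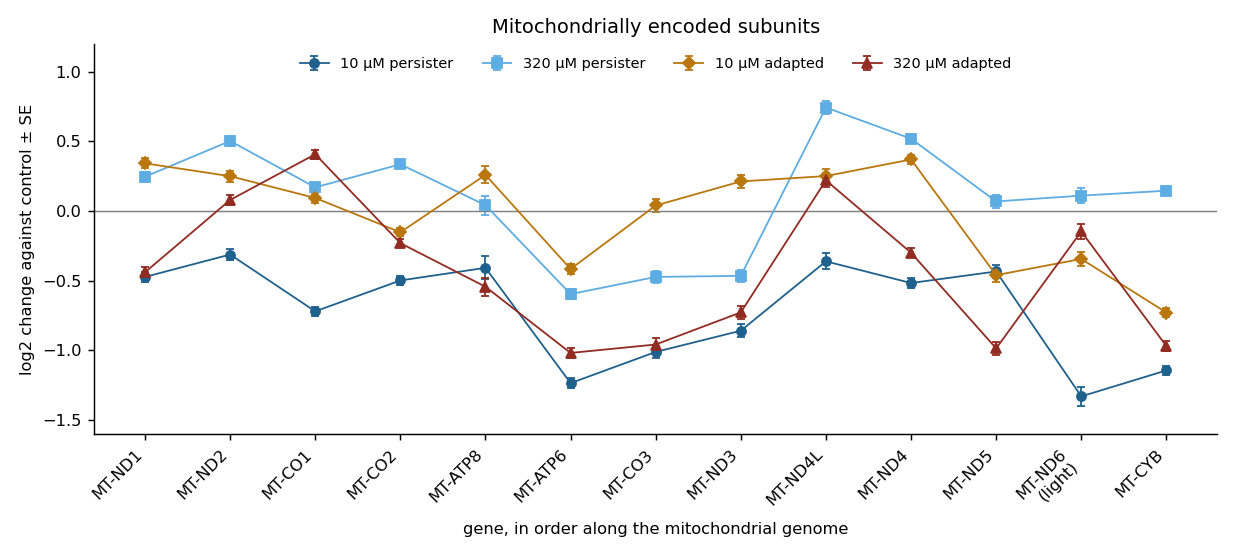
Log2 change against control ± SE (vertical axis) of the 13 mitochondrially encoded genes in their order along the genome, with 1 line per treated condition. The stretch from MT-ATP6 to MT-ND3 holds the 3 lowest points of 320 µM persister cells (-0.60 to -0.46). In 10 µM persister cells MT-ND6 (-1.33) is the lowest point and MT-CYB (-1.14) lies below MT-CO3, in 320 µM adapted cells MT-ND5 (-0.99) and MT-CYB (-0.97) lie near MT-ATP6 (-1.02), and MT-CO1 is the highest point of 320 µM adapted cells.

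MT-CO1, the catalytic subunit of complex IV, went the other way from most of its genome in 320 µM adapted cells. It stood at 11357 and 10802 CPM in control and 14675 and 14736 there (0.41), while MT-CO2 and MT-CO3, the other core subunits of the same complex, were at -0.23 and -0.96. MT-ND4L was the other called higher (0.22), and MT-ND2 was at 0.08, called with the pool as a replicate block (edgeR adjusted p = 0.00664) and at -0.15 with library totals alone, where MT-ND4L was at -0.00494. In cells of the deposited list MT-CO2 was at 0.0787. MT-ND5 fell by 0.99 and MT-CYB by 0.97 on the log2 scale. In 10 µM adapted cells MT-CYB (-0.73), MT-ND5 (-0.46), MT-ATP6 (-0.42), MT-ND6 (-0.34) and MT-CO2 (-0.15) fell while MT-ND4 (0.37) and MT-ND1 (0.34) led the rises.

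Some of these genes share bases, which limits how counts can be divided. MT-ATP8 and MT-ATP6 are read from 1 transcript and overlap by 46 bases, MT-ND4L and MT-ND4 by 7, and the rule by which such bases were counted is not stated in the labels. The libraries were 3′, and how well they capture the upstream gene of a shared transcript was not tested. In control MT-ND4L stood at 151 and 145 CPM against 6457 and 6396 for MT-ND4. The overlap of the first pair is shown because MT-ATP6 fell where MT-ATP8 did not, with the sequence from GENCODE 29 (GRCh38, chrM:8527-8572, plus strand).
MT-ATP8 and MT-ATP6 overlap: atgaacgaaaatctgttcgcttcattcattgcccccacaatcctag

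The overlap is 22.2% of the length of MT-ATP8, whose level was 52.1 and 51.1 CPM in control, and in 320 µM persister cells 52.7 and 53.6. UQCRHL and ATP5MGL are near-identical copies of UQCRH and ATP5MG, so their values are uncertain. UQCRHL stood at 24.0 and 26.8 CPM in control and ATP5MGL at 1.90 and 1.99.

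Adapted cells and persister cells of the same dose were compared next, and the direction in scaled levels depended on the dose. Nuclear-encoded UMIs per cell were lower in adapted cells at each dose, at 0.765 ± 0.0378 times persister cells at 10 µM and 0.575 ± 0.00623 times at 320 µM (mean ± SD, n = 2 pools). Mitochondrially encoded ones stood at 0.995 ± 0.0286 and 0.467 ± 0.00388 times, and total UMIs at 0.722 ± 0.0194 and 0.805 ± 0.000374 times. In scaled levels at 10 µM, 43 of 82 nuclear-encoded members were higher in adapted cells and 17 lower, and 12 of 13 mitochondrially encoded ones were higher, where 31.4% of all tested genes were called higher and 29.3% lower. The exception was MT-ND5, at -0.03 and not called. With library totals alone, which shifted the median of all genes by -0.19, the nuclear split was 32 higher and 29 lower. ATP5MC2 rose by 1.61 ± 0.0487 (edgeR adjusted p = 2.74e-22), ATP5MPL, a membrane subunit of ATP synthase, by 1.39 and NDUFA3 by 1.35, and SDHB (-0.93), COX7A2L (-0.90) and ATP5IF1 (-0.67) had the largest falls. In thinned cells 8 nuclear members fell in place of 17.

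At 320 µM the balance was the other way. There 41 nuclear-encoded members were lower in adapted cells and 20 higher, and 12 of 13 mitochondrially encoded ones were lower and 1, MT-CO1, higher (0.24), where 32.6% of all tested genes were called lower and 34.1% higher. With library totals alone, a shift of -0.28 in the median of all genes, the split was 61 lower and 7 higher, and MT-CO1 was at -0.0447 and not called. NDUFA3 (1.16), ATP5MC2 (1.00) and NDUFS4, a complex I subunit phosphorylated in cells (0.75), rose most. ATP5PB (-1.39), SDHC (-1.32) and COX7A2L (-1.26) fell most. COX7A2 was at -0.09 and passed the threshold with the pool as a replicate block (edgeR adjusted p = 0.00642).

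These 2 comparisons share no sums, so their calls, made on scaled levels and not on UMIs per cell, can be set side by side. There were 30 members, 19 nuclear-encoded and 11 mitochondrially encoded, higher at 10 µM and lower at 320 µM, which is 54.5% of the 55 higher at 10 µM and 56.6% of the 53 lower at 320 µM. Over all 13330 tested genes, 737 had this pattern, which is 17.6% of the 4190 higher at 10 µM and 17.0% of the 4343 lower at 320 µM. For each of the 30 the difference between the doses was also called. That largely follows from their opposite calls in the same fit, so it is no separate support. The opposite pattern was seen for NDUFV3 alone. There were 19 members higher at both doses, among them NDUFA3, ATP5MC2, ATP5S, NDUFS4 and MT-CO1, and 13 lower at both, among them SDHB, SDHC, SDHD, COX7A2L, NDUFA4, ATP5IF1 and ATP5PB. The 19 are 34.5% of the members higher at 10 µM and 90.5% of those higher at 320 µM, against 56.4% and 52.0% over all tested genes. The 13 are 76.5% of the members lower at 10 µM and 24.5% of those lower at 320 µM, against 56.4% and 50.7%. No test was made of these shares.

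**Figure D5:**
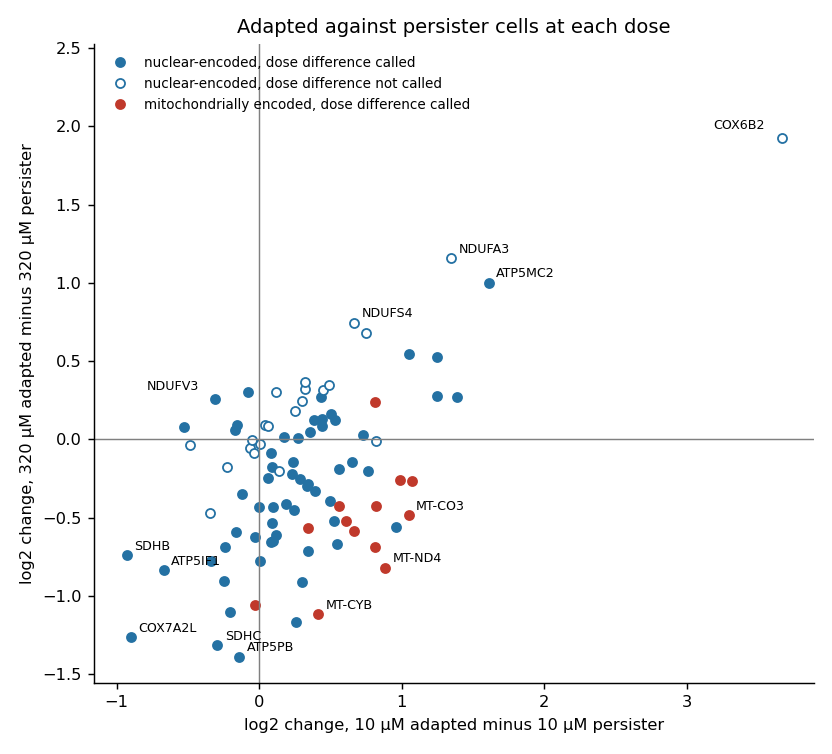
Log2 change of each tested member between adapted and persister cells at 10 µM (horizontal axis) and 320 µM (vertical axis), nuclear-encoded in blue and mitochondrially encoded in red; filled points had a difference between doses with an adjusted p under 0.05. Most red points lie right of 0 and below 0, NDUFA3 and ATP5MC2 lie high on both axes, and COX6B2 at the upper right has 29 or fewer UMIs in every sum.

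The difference of the dose effects was tested directly as the change from 10 to 320 µM in adapted cells minus that in persister cells. It was negative for 54 of 82 nuclear-encoded members and 13 of 13 mitochondrially encoded members and positive for 6 nuclear ones, where 25.9% of all tested genes were called lower and 23.4% higher. Median differences were -0.40 and -1.24, against -0.03 over all genes. MT-ND4 had the largest, -1.71 ± 0.0473 (edgeR adjusted p = 1.36e-22): it rose by 1.04 from 10 to 320 µM in persister cells and fell by 0.67 in adapted cells. MT-CO3 (-1.54) and MT-CYB (-1.53) followed, and ATP5MD (0.60), NDUFV3 (0.57) and UQCRC1, a core subunit of complex III (0.38), led the positive ones. With library totals alone, or without pool 2 of the 320 µM persister cells, 3 nuclear members were positive in place of 6.

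Within adapted cells, taking all cells, the dose divided the genomes. From 10 to 320 µM, 33 nuclear-encoded members were lower and 30 higher, and 10 of 13 mitochondrially encoded ones were lower and 2 higher, where 32.4% of all tested genes were called lower and 33.4% higher. The nuclear counts were thus near the background of all genes on each side, with a median of -0.05. With library totals alone, a shift of -0.16 in the median of all genes, the nuclear split was 43 lower and 16 higher. In listed cells the division was less clear, with 4 mitochondrially encoded members higher in place of 2. There MT-CO2 (0.20) and MT-ND4L (0.19) turned and were called higher. MT-CYB (0.0576) and MT-ND2 (0.0227) turned without a call, and the nuclear median was 0.0457. In thinned cells MT-CO2 was at 0.0591 and not called. NDUFA5 went from 160 and 160 to 73.4 and 76.5 CPM (-1.09 ± 0.0505, edgeR adjusted p = 2.20e-17), MT-CO3 from 11439 and 10984 to 5696 and 5531, where it fell by 1.00 in log2, and MT-ND3 from 3348 and 3564 to 1741 and 1862 (-0.94). UQCRC1 rose by 0.63, NDUFV3 by 0.56 and ATP5ME, a membrane subunit of ATP synthase, by 0.55, and no sums of these 6 genes overlapped. COX7A2L was at -0.08 and passed the threshold with the pool as a replicate block (edgeR adjusted p = 0.0283).

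Cells on and off the deposited list differed in the mitochondrially encoded share in most conditions. In 320 µM adapted cells the mitochondrially encoded share was 6.17% and 6.16% in cells of the deposited list and 4.72% and 4.80% in the other cells, while in control it was 8.43% and 8.28% against 8.27% and 7.97%. It was also higher in listed cells of 320 µM persister (9.57% and 9.82% against 8.07% and 8.26%) and 10 µM adapted cells (7.54% and 7.43% against 7.16% and 7.12%). In 10 µM persister cells it was slightly lower in listed cells, at 5.27% and 5.30% against 5.56% and 5.32%. Listed cells also differed in depth. Their median UMIs per cell (mean of 2 pools) were 7808 against 10808 in other cells of control and 7537 against 11940 in 320 µM adapted cells. They were 11037 against 15274 in 320 µM persister and 7528.5 against 11094 in 10 µM adapted cells, but 13727 against 13542 in 10 µM persister cells. These shares come from unthinned cells, and the part of depth was not tested. Nuclear-encoded shares in 320 µM adapted cells were 2.39% and 2.41% in listed and 2.40% and 2.43% in other cells. Within listed cells the mitochondrially encoded share of 320 µM adapted cells was still below that of listed control cells in both pools. In listed cells 4 mitochondrially encoded members were higher in 320 µM adapted cells than in control, and 4 higher than in 10 µM adapted cells, in place of 2 each.

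Other genes of the pathway, from 8 lists, moved in both directions. Against control in 10 µM persister cells, where 29.3% of all tested genes were called lower and 27.3% higher, 15 of 47 tested assembly factors fell and 11 rose, 9 of 26 genes of mitochondrial DNA maintenance and RNA fell and 2 rose, 14 of 25 of pyruvate dehydrogenase and the citric acid cycle fell and 4 rose, and 7 of 13 of import, porins and chaperones fell and 1 rose. Median changes were -0.16, -0.11, -0.40 and -0.32 in that order, against -0.03 over all genes. In 320 µM adapted cells, where 36.9% were called lower and 37.6% higher, the falls and rises were 23 and 17, 11 and 9, 14 and 7, and 5 and 4 in that order. The 4 shorter lists, of 6 to 13 genes, gave 3 lower and 2 higher of 13 for coenzyme Q synthesis, 4 and 4 of 9 for mitochondrial antioxidants, 4 and 2 of 9 for regulators of mitochondrial biogenesis and 3 and 2 of 6 for subunits and carriers outside the symbol rule in 10 µM persister cells.

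Among list genes that feed or build the chain, TFAM, which packages and transcribes mitochondrial DNA, stood at 107 and 112 CPM in control, 63.7 and 60.8 in 10 µM persister, 68.0 and 60.9 in 320 µM persister, 64.3 and 63.9 in 10 µM adapted and 79.4 and 69.5 in 320 µM adapted cells. Its sums were below control in every treated condition, and no link to the levels of mitochondrially encoded members was tested. MPC2, a pyruvate carrier subunit, went from 234 and 233 CPM in control to 91.6 and 91.3 in 320 µM adapted cells (-1.35). HSPD1, a chaperone of imported proteins, fell by 1.14 in 10 µM persister cells on the log2 scale, from 1197 and 1140 to 532 and 525 CPM. FH, the fumarase of the citric acid cycle, fell by 1.83, from 54.7 and 56.9 to 16.2 and 15.1 CPM.

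Close partners of the members also changed. NDUFA4L2, the paralog of NDUFA4 known for induction by low oxygen, stood at 0.884 and 0.976 CPM in control, 8.51 and 3.84 in 10 µM persister, 3.21 and 3.38 in 320 µM persister, 4.64 and 3.80 in 10 µM adapted and 60.4 and 55.5 in 320 µM adapted cells. It was thus highest where NDUFA4 was lowest, with a rise of 5.94 against control. CYCS, the cytochrome c that links complexes III and IV, stood at 622 and 621 CPM in control, 711 and 662 in 10 µM persister, 720 and 710 in 320 µM persister, 236 and 228 in 10 µM adapted and 361 and 365 in 320 µM adapted cells. UQCC2, an assembly factor of complex III, rose by 1.16 in 320 µM adapted cells, from 164 and 171 to 373 and 376 CPM, where UQCRFS1, the Rieske protein of complex III, fell by 0.69 on the log2 scale.

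SOD2, the superoxide dismutase of the mitochondrial matrix, stood at 458 and 404 CPM in 10 µM persister cells and 26.4 and 28.2 in control, a rise of 3.98, and at 21.5 to 40.6 CPM in the other conditions. PNPT1, an RNA-degrading enzyme of mitochondria, was at 135 and 127 CPM in 10 µM persister cells against 64.9 and 63.0 in control (1.03) and 42.6 to 51.1 elsewhere. Both were highest in 10 µM persister cells, and no link of either to the levels of mitochondrially encoded members was tested. GPX4, which reduces lipid peroxides, was above control in every treated condition, from 542 and 548 CPM to 1008 and 1006 in 320 µM adapted cells (0.89). Leukocyte markers summed to 1.02 and 1.02 CPM in control, 11.3 and 14.4 in 10 µM persister and 4.24 and 2.79 in 320 µM persister cells. In adapted cells they summed to 7.51 and 8.44 CPM at 10 µM and 18.1 and 19.1 at 320 µM. In every condition 1 to 3 of 7 markers were over 3 UMIs, with only 1 in 10 µM persister cells, and CD3E was at 0. Endothelial markers summed to 0.348 to 6.73 CPM. The part of either in the results was not tested.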

How the data were processed

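Cells were counted with 10x Genomics 3′ v3.1 chemistry from 8 gene expression and 2 hashtag libraries, per the labels' protocols. The tools and builds, per the submitters' processing notes, include Cell Ranger 3.1, Seurat, hg38 and GRCh38. For counting, hashtag assignment, cell filters and doublet removal the settings were not given in the sources used here. No doublet caller was run. The authors deposited raw UMI counts of 19893 genes over 13800 cells, 7346 in pool 1 and 6454 in pool 2, each with at least 502 genes. Condition and pool were read from cell names. Other deposited values of the authors (genes and UMIs per cell) only described cells. A deposited table named for G1 lists 7762 cells (56.2%), and how they were picked is not stated. Its UMI total equalled the sum of the deposited counts in 37 of these cells, and the reason is not known. All shares and values per cell here use the sums of the counts.

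Counts were summed by condition and pool, scaled by edgeR's trimmed mean of M-values, with factors of 0.868 to 1.11, filtered with filterByExpr and tested in R 4.3.3 with the robust quasi-likelihood test of edgeR 4.0.16. The fit held all 10 sums, gave each condition a mean, left 5 residual degrees of freedom and estimated 4.39% for the biological coefficient of variation. Benjamini-Hochberg adjustment ran over all 13330 genes, with a threshold of 0.05, in 9 comparisons. The code was tested on simulated data. Between the pools of a condition chi-square per degree of freedom was 2.18 to 3.37, so none was treated as a repeat of its partner. Each pool mixes cells of all conditions, and pool differences correlated at 0.332 to 0.606 over 2730 genes between every pair of conditions, so pools pair the sums, and an alternative fit added a replicate block for pool. Cells were thinned to 3000 UMIs to compare shares. Intervals were not made, and the floor of 3 UMIs covers counting error only.

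Named members were the 3 largest rises and falls per comparison with an adjusted p under 0.05, at least 20 CPM in the higher condition and no overlap of sums, plus the mitochondrially encoded genes, 5 pairs of complex IV paralogs, NDUFA4, COX7A2L, ATP5IF1 and SDHA to SDHD. List genes were up to 3 per list and comparison with the lowest p. COX7B, NDUFA6, UQCRH, UQCRFS1, NDUFS1, UQCRHL, ATP5MGL and ATP5MC1 fall outside that rule for the comparisons given and were named after their values were seen. A result on 1 member is not reported here. Members and lists were chosen with earlier results of these data known. Of 151 list genes 149 are in the counts. Gene positions are from GENCODE 29, and promoters from RefSeq.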

Additional observations from a re-analysis of the deposited data

Results flagged for a closer look

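The effect of the dose differed between adapted and persister cells for 73 of the 95 tested members, by an edgeR test of the difference itself (the log2 change from 10 to 320 µM in adapted cells minus that in persister cells). It was negative for 67 and positive for 6, where 25.9% of all tested genes were called lower and 23.4% higher. The members named by rule are listed here; since that rule takes large called changes, their number carries no weight. The mitochondrially encoded ones were MT-ND4 (-1.71), MT-CO3 (-1.54), MT-CYB (-1.53), MT-ND1 (-1.50), MT-ND3 (-1.33), MT-ATP8 (-1.25), MT-ND6 (-1.24), MT-ATP6 (-1.24), MT-ND4L (-1.13), MT-ND5 (-1.03), MT-ND2 (-0.99), MT-CO2 (-0.91) and MT-CO1 (-0.58). MT-CO1 thus had the smallest difference of the 13.

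Among nuclear-encoded members named by rule the negative differences were UQCRB (-1.52), NDUFA5 (-1.43), ATP5PB (-1.25), ATP5MPL (-1.12), SDHC (-1.02), COX7C (-0.97), NDUFA4 (-0.90), NDUFB6 (-0.73), ATP5S (-0.72), ATP5MC3 (-0.63), ATP5MC2 (-0.61), COX8A (-0.60), COX6B1 (-0.54), SDHD (-0.44), COX7A2L (-0.37), COX4I1 (-0.31), ATP5IF1 (-0.17) and COX6A1 (-0.16). The positive ones were SDHB (0.19), NDUFV2 (0.23), UQCRC1 (0.38), NDUFV3 (0.57) and ATP5MD (0.60). Complex II is split, with SDHB positive and its membrane anchors negative.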

How the results depend on the processing

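Of 3789 values of named members under the alternatives, 3607 kept direction and side of the threshold, 127 lost and 37 gained the call, and 18 turned. The cause was not tested in any case. With the pool as a replicate block no count of calls moved by over 1.5 times, and 7 named values gained the call (given beside them); it changed no other call of a named member.

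Library totals alone moved 9 counts past 1.5 times: higher nuclear members from 20 to 10 and mitochondrial from 2 to 1 in 320 µM adapted against control, lower nuclear members from 17 to 29 and mitochondrial from 0 to 1 in adapted against persister at 10 µM, higher ones from 20 to 7 and from 1 to 0 at 320 µM, and higher ones from 30 to 16 and from 2 to 1 between adapted doses. For the dose difference 3 nuclear members were higher in place of 6. It turned, in 320 µM adapted against control, MT-ND2 (-0.15), MT-ND4L (-0.00494), COX4I1 (-0.069), COX7A2 (-0.13) and SDHA (-0.19), in adapted against persister at 10 µM COX6A1 (-0.0172) and COX8A (-0.00290), at 320 µM MT-CO1 (-0.0447), COX4I1 (-0.23), COX6A1 (-0.27) and SDHA (-0.0386), and between adapted doses SDHA (-0.0199).

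In listed cells 3 nuclear members rose in 10 µM persister and 20 fell in 320 µM persister cells, and 4 mitochondrially encoded ones were higher in 320 µM adapted cells against control and against 10 µM adapted cells. MT-CO2 turned to 0.0787 against control, and between adapted doses MT-CO2 (0.20), MT-CYB (0.0576), MT-ND2 (0.0227), MT-ND4L (0.19) and the nuclear median (0.0457) turned. In thinned cells the counts were 3 and 21, 8 nuclear members fell in 10 µM adapted against persister cells, and MT-CO2 turned to 0.0591 between adapted doses.

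Mitochondrially encoded shares in listed and thinned cells were 5.29% and 5.50% in 10 µM persister, 7.49% and 7.12% in 10 µM adapted and 6.17% and 5.63% in 320 µM adapted cells, and 9.69% in listed 320 µM persister cells. For nuclear-encoded members control gave 3.48% and 3.41%, and 320 µM persister cells gave 3.42% and 3.39%.

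Leaving out 1 sum at a time gave 2 to 5 higher nuclear members in 10 µM persister against control (2 without pool 2 of control), 0 to 1 lower mitochondrial ones in 10 µM adapted against persister, 1 to 4 lower nuclear ones between persister doses (1 without pool 2 of 10 µM persister), 1 to 2 higher mitochondrial ones between adapted doses (1 without pool 2 of 10 µM adapted or pool 1 of 320 µM adapted) and 3 to 6 higher nuclear ones for the dose difference (3 without pool 2 of 320 µM persister). A lone sum is assumed to vary like the others. Leaving ribosomal protein genes out of the fit was chosen after seeing the data. The 10 µM persister sums are the shallowest and limit low members most.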

Other observations

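In 1 of the 95 tested members the mean difference between pools exceeded the range of the condition means. ATP5F1D, the delta subunit of the F1 head, stood at 160, 140, 123, 165 and 153 CPM in pool 1 and 242, 229, 200, 238 and 245 in pool 2, in the order control, 10 µM persister, 320 µM persister, 10 µM adapted and 320 µM adapted. The mean log2 difference between pools was 0.64, against a log2 range of 0.32 over condition means, and no comparison of ATP5F1D against control was called. NDUFA11 (0.30), NDUFB8 (0.26) and UQCR11 (0.21) were also higher in pool 2 in every condition, with ranges over condition means of 0.36, 0.82 and 0.22. These 4 members were picked after their values were seen.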
